A study of Mus musculus with 19 samples.

Results

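The CPEB family comprises the RNA-binding proteins encoded in the mouse by *Cpeb1*, *Cpeb2*, *Cpeb3* and *Cpeb4*. These 4 genes were taken by their symbols from the 25891 genes of a deposited expression table, and all 4 were found there once each. CPEB proteins bind U-rich cytoplasmic polyadenylation elements (CPE) in the 3′UTR of mRNAs. *Cpeb1* encodes the founding member, which together with the cleavage and polyadenylation specificity factor and the poly(A) polymerase *Papd4* lengthens poly(A) tails of stored oocyte mRNAs and, with other partners, keeps such mRNAs silent. *Cpeb2*, *Cpeb3* and *Cpeb4* encode a closely related subgroup with a similar RNA-binding domain. *Cpeb4* is known from the late phase of meiotic maturation in frog oocytes, and *Cpeb3* is best known as a prion-like regulator of translation in neurons.

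RNA was sequenced from mouse MII oocytes (ovulated oocytes arrested in the second meiotic metaphase) and from 2cell embryos of females labelled CPEB3 Het (CPEB3+/-) or CPEB3 KO (CPEB3-/-). MII oocytes gave 5 libraries of each genotype, and 2cell embryos gave 5 libraries labelled CPEB3+/- and 4 labelled CPEB3-/-, each named by a letter from A to E. In the study's methods the knockout is conditional: in CPEB3-/- both *Cpeb3* alleles carry LoxP sites, and Cre is driven by the promoter of the oocyte gene ZP3, which acts in the growing oocyte and not in the other tissues of the female. The control genotype of the methods also carries a LoxP allele and ZP3-Cre, so that Cre is common to both. The deleted exons are not given in the sources used here. The females of all groups were BL6 mice between 6 and 10 weeks old and received 5 IU of PMSG (pregnant mare serum gonadotropin) and, 48 h later, 5 IU of hCG. The 2cell embryos came from mated females by way of zygotes cultured in vitro, and were collected 37 h after hCG. The genotype in a 2cell label is that of the mother. The males that sired these embryos are not described in the methods. The study names wild-type males for other matings of these females, and with such males the embryos carry an intact paternal allele. Each library was made from 5 cells according to the methods, which do not say how many females stand behind a group, and p-values therefore measure the spread between these libraries. No library is labelled wild type.

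Values are FPKM (fragments per kilobase of transcript, relative to the mapped fragments of a library), so levels can be compared between genes. Low values of genes with a single transcript fell on whole fragments in 43.9% of cases (10% by chance), from which a depth of 17.2 to 23.6 M (mega) fragments per library was estimated, with a median of 19.8 M. Fragment numbers of the members, which have several transcripts each, are approximate and need not be whole. The cell types were checked by the summed level of marker genes. The 10 oocyte markers summed to between 1392 and 1738 FPKM in CPEB3+/- and between 1102 and 1324 FPKM in CPEB3-/- MII libraries, and to between 121 and 218 FPKM in the 2cell libraries. The 9 markers of the 2cell stage that were matched summed to between 38.0 and 45.3 FPKM in CPEB3+/- MII, between 46.7 and 62.6 FPKM in CPEB3-/- MII, and between 477 and 938 FPKM in the 2cell libraries. Both marker sums thus differed between the genotypes in MII oocytes without overlap, and their part in the values below was not tested. The 9 matched cumulus and granulosa cell markers summed to at most 0.672 FPKM in MII and 1.3 FPKM in 2cell libraries. Of 5 blood markers, 2 globin genes were matched, with sums of at most 0.428 FPKM in MII and between 46.2 and 146 FPKM in 2cell libraries, where the genotypes overlapped. The part of these genes in the stage changes below was not tested.

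The members differ in length and position in GRCm38 (GENCODE vM21). *Cpeb1* lies on chromosome 7 from 81347026 to 81455465 on the minus strand, and its longest coding transcript has 12 exons and 3111 bases, 1315 of them in the 3′UTR. *Cpeb2* lies on chromosome 5 from 43233170 to 43289724 on the plus strand (11 exons, 7050 bases, 3′UTR of 3778). *Cpeb3* lies on chromosome 19 from 37021291 to 37208601 on the minus strand (11 exons, 5899 bases, 3′UTR of 3569). *Cpeb4* lies on chromosome 11 from 31872211 to 31935634 on the plus strand (9 exons, 6303 bases, 3′UTR of 4102). No stretch of 50 bases of these transcripts occurs in a transcript of another gene. Exons of *Cpeb2* overlap those of the antisense gene *Gm7854* by 137 bases, which is not analysed here. Exons of *Cpeb3* overlap the antisense gene *A330032B11Rik* by 116 bases, which was listed at 0 in all MII libraries and at no more than 0.0617 FPKM in any 2cell library.

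Since the family is named after the CPE, the 3′UTRs of the members themselves were searched for the element. The motifs were UUUUAU and UUUUAAU, sought on the RNA strand only. All 4 members carried at least 1 CPE in the last 300 bases of the 3′UTR, as did 36.0% of the 16301 genes with a 3′UTR of that length. Over the whole 3′UTR *Cpeb2* had 24 CPEs, *Cpeb4* had 17, *Cpeb3* had 6 and *Cpeb1* had 4. Per kilobase this was 6.35 in *Cpeb2*, 4.14 in *Cpeb4*, 3.04 in *Cpeb1* and 1.68 in *Cpeb3*, against a median of 1.01 over all genes. The density of *Cpeb2* was above that of 99.1% of genes, that of *Cpeb4* above 95.5%, that of *Cpeb1* above 89.7% and that of *Cpeb3* above 68.1%. A match is a run of letters and not a site shown to be bound. For each member, the CPE closest to the 3′ end is shown with its surroundings. The study describes a limited affinity of CPEB3 for the CPE. It also describes an apparent affinity of CPEB3 and CPEB4 for other U-rich elements, which were not searched for here. Sequences are those of GENCODE vM21. Capitals mark the CPE.

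*Cpeb1* CPE: uugacuuuucuUUUUAAUuuaacgauuacu

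*Cpeb2* CPE: uaauuuaguuuaUUUUAUuguuaucuucca

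*Cpeb3* CPE: ggaauaaauuaaUUUUAUgaugcuaauucu

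*Cpeb4* CPE: ggguaauucauuUUUUAUuaaagucauuuu

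The last CPE of *Cpeb2* began 159 bases before the end, closer than those of *Cpeb4* (217 bases), *Cpeb3* (233 bases) and *Cpeb1* (249 bases), and its window of 300 bases held 5 CPEs where each of the other members had 1. *Cpeb2* and *Cpeb4* also shared a run of 21 bases, UAAUUUUUAAAUAUUUGUAAU, within their last 150 bases, whereas the longest run shared by any other pair there was 9 bases.

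*Cpeb3*, the targeted gene, was examined first. In CPEB3+/- MII libraries A to E it was listed at 0.0700, 0.0987, 0.0450, 0.0627 and 0.101 FPKM. In CPEB3-/- MII libraries A to E it was listed at 0.215, 0.141, 0.164, 0.131 and 0.157 FPKM. Every library labelled CPEB3-/- was higher than every library labelled CPEB3+/-. The FPKM covers the whole gene and the deleted exons are not known here, so this order does not measure the deletion. Groups did not overlap with CPEB3-/- higher in 8.71% of the genes tested in MII oocytes. The mean was 0.0755 ± 0.0240 FPKM (n = 5, SD) in CPEB3+/- against 0.162 ± 0.0325 FPKM (n = 5, SD) in CPEB3-/-, a ratio of 2.14. These levels rest on about 6.28 to 12.2 fragments per CPEB3+/- and 16.2 to 28.9 per CPEB3-/- library. On the log2(FPKM + 0.1) scale, which understates changes of such low genes, the difference was 0.53 (standard error 0.12, adjusted p = 0.0142, limma), past the p threshold, as were 21.5% of the genes tested, but below the 1.5-fold change (0.585) that a call requires. The gene passed the filter on low values (0.1 FPKM in 5 libraries) through the 5 CPEB3-/- libraries and CPEB3+/- library E, so the test was possible only because the level was higher in CPEB3-/-. Without the filter, the exact permutation test of the FPKM gave p = 0.00794 (two-sided), the smallest p that 252 arrangements allow, and 0.0635 after adjustment over the 8 tests of 4 members in both stages.

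In 2cell embryos *Cpeb3* was lower still. CPEB3+/- libraries A to E were listed at 0.0204, 0.0236, 0.0265, 0.0566 and 0.0246 FPKM. CPEB3-/- libraries A to D were listed at 0.0599, 0.0362, 0.0633 and 0.0624 FPKM. The groups overlapped only through CPEB3+/- library D, which was higher than CPEB3-/- library B. The means were 0.0303 ± 0.0149 FPKM (n = 5, SD) and 0.0554 ± 0.0129 FPKM (n = 4, SD), and the exact permutation test gave p = 0.0317 (two-sided; 0.0635 adjusted over the 8 tests). About 2.22 to 7.11 fragments lie behind each of these values, while 3 fragments correspond to 0.0257 FPKM, so 2cell *Cpeb3* was at the limit of detection. The FPKM covers the whole gene and cannot show whether the fragments come from the deleted exons. The FPKM of *Cpeb3* was thus not lower in the CPEB3-/- libraries, and whether this bears on the labels was not tested. CPEB3+/- and CPEB3-/- stand throughout for the libraries labelled so, and each direction below rests on those labels.

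**Figure D1:**
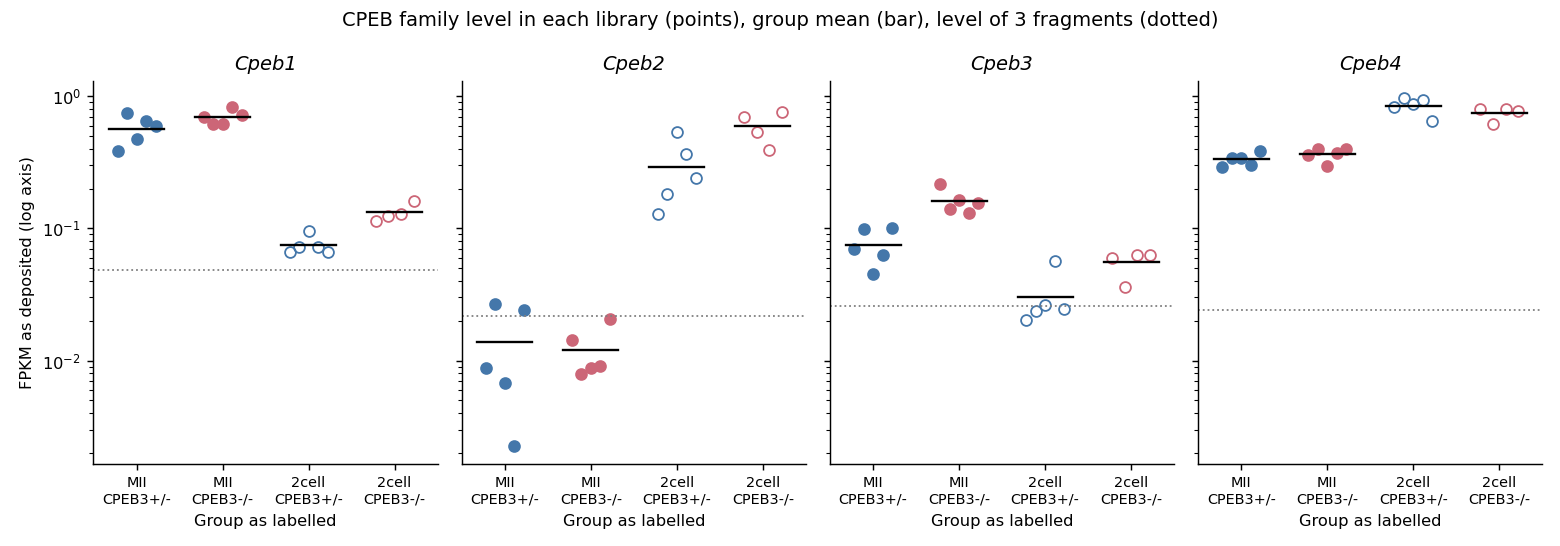
FPKM as deposited (log axis) of each CPEB gene in each of the 19 libraries, by stage and labelled genotype, with replicate letters in order from left to right; horizontal bars are group means and the dotted line is the FPKM of 3 fragments at the median depth. *Cpeb1* drops and *Cpeb2* and *Cpeb4* climb from MII to 2cell, while *Cpeb2* in MII and *Cpeb3* in 2cell libraries lie near the line of 3 fragments.

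All 4 members had group means under 1 FPKM. In MII oocytes the group means of *Cpeb1* (0.570 and 0.696 FPKM) were above those of 78.4% and 79.4% of all genes of the table, and in 2cell embryos *Cpeb4* (0.850 and 0.749 FPKM) stood above 77.7% and 75.3%. The lowest in rank were *Cpeb2* in MII oocytes (above 38.7% and 36.0%) and *Cpeb3* in 2cell embryos (above 30.2% and 35.9%). In both stages the 4 members had a fixed order. In MII oocytes it was *Cpeb1*, *Cpeb4*, *Cpeb3* and *Cpeb2*, with means over the 10 libraries of 0.633, 0.349, 0.119 and 0.0129 FPKM. In 2cell embryos it was *Cpeb4*, *Cpeb2*, *Cpeb1* and *Cpeb3*, with means over the 9 libraries of 0.805, 0.426, 0.1 and 0.0415 FPKM. Each of the 3 neighbouring pairs stood in this order in 10 of 10 MII libraries, and in 9 of 9 2cell libraries. The difference within a library, on the log2(FPKM + 0.1) scale, was 0.69 ± 0.24 (n = 10, SD) for *Cpeb1* over *Cpeb4*, 1.07 ± 0.33 for *Cpeb4* over *Cpeb3* and 0.90 ± 0.32 for *Cpeb3* over *Cpeb2* in MII oocytes. In 2cell embryos it was 0.91 ± 0.75 (n = 9, SD) for *Cpeb4* over *Cpeb2*, 1.29 ± 0.48 for *Cpeb2* over *Cpeb1* and 0.50 ± 0.18 for *Cpeb1* over *Cpeb3*. The pairs were taken from the order of these same libraries, so that the differences are given as a description, with no test. The members of a library share its depth and its cells.

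The summed FPKM of the 4 members was 0.992 ± 0.183 FPKM (n = 5, SD) in CPEB3+/- MII libraries, 1.24 ± 0.105 (n = 5) where the label was CPEB3-/-, and 1.24 ± 0.238 (n = 5) and 1.53 ± 0.215 FPKM (n = 4) in the 2cell libraries of these genotypes. *Cpeb1* made up between 50.9% and 63.9% of the sum in every MII library and between 5.06% and 9.53% in every 2cell library. *Cpeb2* went from at most 2.20% of the sum in MII libraries to between 12.2% and 43.0% in 2cell libraries. *Cpeb4* held between 27.4% and 39.5% in MII libraries and was the largest part in each 2cell library, with between 44.3% and 79.5%. Its 2cell share was 69.1% ± 9.37 (n = 5, SD) in CPEB3+/- and 49.2% ± 6.00 (n = 4) in CPEB3-/-, while that of *Cpeb2* was 22.4% ± 9.20 and 38.5% ± 6.84. The share of *Cpeb3* in MII libraries was between 5.18% and 9.28% in CPEB3+/- and between 9.78% and 16.7% in CPEB3-/-.

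**Figure D2:**
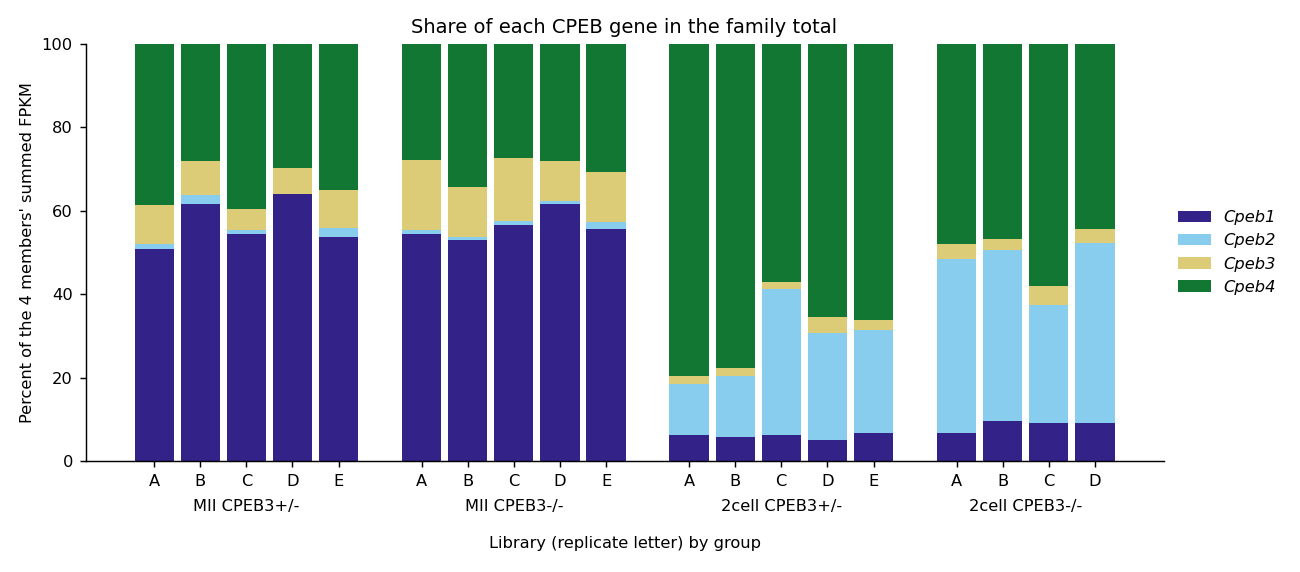
Share of each CPEB gene in the summed FPKM of the 4 members (percent, stacked), one bar per library, grouped by stage and labelled genotype with the replicate letter beneath. *Cpeb1* fills over 50% of each MII bar and under 10% of each 2cell bar, and *Cpeb2* is visible as a large part only in 2cell bars, where it is smallest in CPEB3+/- libraries A and B.

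The comparison of 2cell embryos with MII oocytes asks how the family changes while maternal RNA is degraded and the embryonic genome becomes active. Of 15786 genes tested, 65.4% were called in CPEB3+/- (42.4% higher and 23% lower at the 2cell stage) and 64.7% in CPEB3-/- (41.4% higher and 23.3% lower), with an adjusted p under 0.05 and a change above 1.5-fold (limma). Of the 4 members, 3 were called in CPEB3+/- and all 4 in CPEB3-/-, so that a call as such does not set a member apart from other genes. FPKM are relative to the RNA of a library, so RNA per cell is not measured, and less of a transcript cannot be told from more of other RNA. The median of all tested genes was 0.41 higher on the log2 scale at the 2cell stage in CPEB3+/- and 0.37 higher in CPEB3-/-. Scaled to the sum of FPKM, which was up to 159320 in 2cell and as low as 77208 in MII libraries, the median was -0.17 and -0.07. Of the calls, 6701 were higher and 3623 lower in CPEB3+/-, and 4976 higher and 5931 lower with that scaling. In CPEB3-/- the split was 6539 higher and 3675 lower, and 5315 and 5572 with that scaling.

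*Cpeb1*, the CPEB best studied in oocytes, fell from MII to 2cell. In CPEB3+/- MII libraries A to E it was listed at 0.384, 0.748, 0.474, 0.648 and 0.596 FPKM, and in the 2cell libraries at 0.0664, 0.0720, 0.0956, 0.0724 and 0.0664 FPKM. In CPEB3-/- MII libraries A to E it was at 0.701, 0.620, 0.613, 0.825 and 0.720 FPKM, and in 2cell libraries A to D at 0.114, 0.125, 0.128 and 0.162 FPKM. No 2cell library reached the lowest MII library in either genotype. The ratio of the MII to the 2cell mean was 7.65 in CPEB3+/- (95% counting interval 4.89 to 12.5) and 5.26 in CPEB3-/- (3.55 to 7.79). On the log2(FPKM + 0.1) scale the change was -1.87 (standard error 0.13, adjusted p = 2.67e-10, limma) in CPEB3+/- and -1.71 (0.14, adjusted p = 2.52e-09) in CPEB3-/-. Relative to the median of all genes these changes were -2.28 and -2.08, and -2.19 and -2.15 when scaled to the sum of FPKM.

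*Cpeb2* went the opposite way. In CPEB3+/- MII libraries A to E it was listed at 0.00875, 0.0266, 0.00672, 0.00225 and 0.0242 FPKM, and in CPEB3-/- MII libraries at 0.0143, 0.00787, 0.00879, 0.00903 and 0.0206 FPKM. These values stand for about 0.325 to 3.92 fragments per library, and only CPEB3+/- libraries B and E and CPEB3-/- library E exceeded 3 fragments, so that *Cpeb2* was close to undetected in MII oocytes. In 2cell embryos CPEB3+/- libraries A to E were at 0.129, 0.181, 0.536, 0.366 and 0.239 FPKM, and CPEB3-/- libraries A to D at 0.693, 0.538, 0.392 and 0.757 FPKM. Each 2cell library was above each MII library. The ratio of the 2cell to the MII mean was 21.2 in CPEB3+/- (95% counting interval 11.3 to 44.8) and 49.1 in CPEB3-/- (26.1 to 111), based on totals of 10 and 9 fragments in MII libraries. The log2 change was 1.73 (standard error 0.21, adjusted p = 7.12e-07, limma) in CPEB3+/- and 2.63 (0.22, adjusted p = 5.98e-09) in CPEB3-/-. *Cpeb2* passed the filter (0.1 FPKM in 4 of the 19 libraries) only through the 2cell libraries, and could be tested only because it was high there. Relative to the median of all genes this was 1.32 and 2.26.

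*Cpeb4* also rose, by a smaller factor. CPEB3+/- MII libraries A to E were listed at 0.292, 0.339, 0.344, 0.301 and 0.388 FPKM and CPEB3-/- MII libraries at 0.359, 0.401, 0.297, 0.375 and 0.397 FPKM. CPEB3+/- 2cell libraries A to E were at 0.834, 0.964, 0.872, 0.934 and 0.645 FPKM, and CPEB3-/- 2cell libraries A to D at 0.797, 0.614, 0.803 and 0.780 FPKM. The stages did not overlap in either genotype. The 2cell mean was 2.55 times the MII mean in CPEB3+/- (95% counting interval 2.17 to 3) and 2.05 times in CPEB3-/- (1.74 to 2.43). The log2 change was 1.20 (standard error 0.12, adjusted p = 4.22e-08, limma) and 0.93 (0.13, adjusted p = 2.66e-06). This call depended on the scaling, since scaled to the sum of FPKM the change was 0.46 in CPEB3+/- and 0.39 in CPEB3-/-, under 1.5-fold. Relative to the median of all genes it was 0.79 and 0.56, and 0.63 and 0.46 with the sum of FPKM.

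*Cpeb3* was lower in 2cell embryos than in MII oocytes. The MII mean was 2.49 times the 2cell mean in CPEB3+/- (95% counting interval 1.37 to 4.55), where CPEB3+/- 2cell library D was above CPEB3+/- MII library C, and 2.92 times in CPEB3-/- (1.88 to 4.81), where the stages did not overlap. The log2 change was -0.40 (standard error 0.12, adjusted p = 0.00714, limma) in CPEB3+/-, under the 1.5-fold threshold, and -0.70 (0.13, adjusted p = 9.75e-05) in CPEB3-/-. The p threshold alone was passed by 72.7% and 71.5% of genes. *Cpeb3* passed the filter only through MII libraries, the 5 labelled CPEB3-/- and CPEB3+/- library E, where it was high. Relative to the median of all genes it was -0.81 and -1.08.

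**Figure D3:**
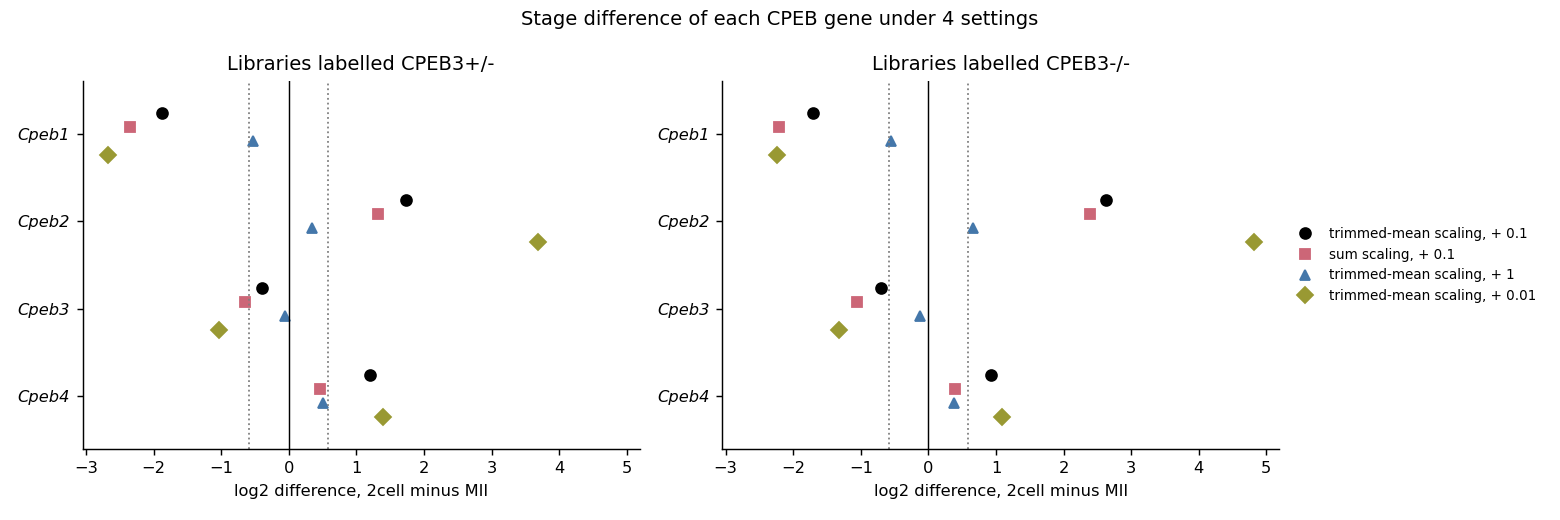
Log2 difference between 2cell embryos and MII oocytes (2cell minus MII) of each CPEB gene in libraries labelled CPEB3+/- (left) and CPEB3-/- (right), under 4 combinations of scaling and added pseudocount; dotted lines mark 1.5-fold. The sign of each gene is the same under all 4, and the size depends on the pseudocount, with *Cpeb2* in CPEB3-/- going from 0.66 with a pseudocount of 1 to 4.82 with 0.01.

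The comparison of CPEB3-/- with CPEB3+/- asks whether the RNA of the other members differed where maternal *Cpeb3* was targeted. In MII oocytes 12.9% of 10515 tested genes passed both thresholds (5.72% were higher and 7.18% lower with CPEB3-/-), and in 2cell embryos 18.1% of 14051 (9.11% higher and 8.95% lower). Among the 3 members tested in each stage, 0 were called in either. An unadjusted p under 0.05 (limma) was reached by 37.1% of genes in MII oocytes, *Cpeb3* among them, and by 34.2% in 2cell embryos, *Cpeb1* and *Cpeb2* among them. *Cpeb3* in MII oocytes and *Cpeb1* in 2cell embryos were tested only because CPEB3-/- libraries carried them over the filter. The calls over all genes were 601 higher and 755 lower in CPEB3-/- MII oocytes, or 786 and 591 with the values as deposited, and 1280 and 1257 in 2cell embryos. Scaled to the sum of FPKM they were 1111 higher and 478 lower in MII oocytes and 2423 and 573 in 2cell embryos, while the median of all genes was then 0.15 and 0.26 on the log2 scale.

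*Cpeb1* in 2cell embryos was higher in all 4 CPEB3-/- libraries (0.114 to 0.162 FPKM) than in all 5 CPEB3+/- libraries (0.0664 to 0.0956 FPKM). The groups did not overlap in this direction in 10.4% of all tested 2cell genes. The means were 0.0745 ± 0.0121 FPKM (n = 5, SD) in CPEB3+/- and 0.132 ± 0.0208 FPKM (n = 4, SD) in CPEB3-/-, a ratio of 1.77, based on about 3.82 to 9.73 fragments per library. The log2 difference was 0.40 (standard error 0.15, 95% interval 0.06 to 0.75, adjusted p = 0.0922, limma) and did not pass the threshold. *Cpeb1* passed the filter of 0.1 FPKM in 4 libraries only through the CPEB3-/- libraries. The exact permutation test of the FPKM gave p = 0.0159 (two-sided; 0.0635 adjusted over the 8 tests). In MII oocytes the means were 0.570 ± 0.144 and 0.696 ± 0.0863 FPKM (n = 5 each, SD), with 1 of 5 CPEB3-/- libraries above all CPEB3+/- libraries. The log2 difference was 0.19 (95% interval -0.13 to 0.51, adjusted p = 0.356), which leaves room for a rise of up to 1.43-fold on this scale.

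*Cpeb2* in 2cell embryos had the largest difference between the genotypes among the members in FPKM. The mean was 0.290 ± 0.163 FPKM (n = 5, SD) in CPEB3+/- and 0.595 ± 0.164 FPKM (n = 4, SD) in CPEB3-/-, a ratio of 2.05. The overlap came from library C of each genotype, which was the highest of CPEB3+/- (0.536 FPKM) and the lowest of CPEB3-/- (0.392 FPKM). The log2 difference was 0.89 (standard error 0.30, 95% interval 0.21 to 1.56) and missed the threshold with an adjusted p of 0.0655 (limma). It was called without CPEB3+/- library C (1.08, adjusted p = 0.0230), and when scaled to the sum of FPKM (1.13). Relative to the median of all genes it was 0.87, and 0.86 with the sum of FPKM. The exact permutation test of the FPKM gave p = 0.0317 (two-sided; 0.0635 adjusted over the 8 tests). In MII oocytes, where *Cpeb2* was under the filter, the genotypes overlapped entirely, with means of 0.0137 ± 0.0110 and 0.0121 ± 0.00535 FPKM (n = 5 each, SD) and an exact permutation p of 0.802. A difference in *Cpeb2* was not detectable at this depth in MII oocytes.

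*Cpeb4* did not pass the threshold in either stage. In MII oocytes the means were 0.333 ± 0.0384 and 0.366 ± 0.0422 FPKM (n = 5 each, SD) and the log2 difference was 0.03 (95% interval -0.21 to 0.28, adjusted p = 0.846, limma). After removal of a GC trend fitted in every library it was 0.30 (standard error 0.12, unadjusted p = 0.0334, adjusted p = 0.105). In 2cell embryos the means were 0.850 ± 0.125 FPKM (n = 5, SD) in CPEB3+/- and 0.749 ± 0.0904 FPKM (n = 4, SD) in CPEB3-/-, and the log2 difference was -0.17 (95% interval -0.53 to 0.19, adjusted p = 0.483). The sign in 2cell embryos depended on the scaling and on the GC content of the genes. It was 0.10 when scaled to the sum of FPKM, and 0.22 after removal of the GC trend. The *Cpeb4* transcript has 39.3% GC, while those of the other members have between 47.5% and 48.2%.

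**Figure D4:**
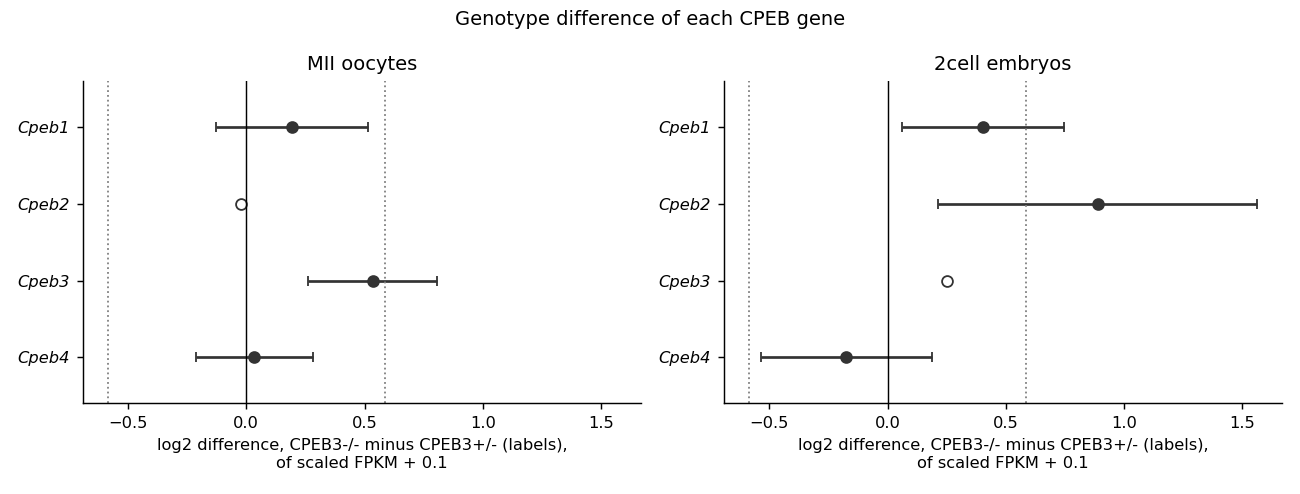
Log2 difference of scaled FPKM + 0.1 between libraries labelled CPEB3-/- and CPEB3+/- for each CPEB gene in MII oocytes (left) and 2cell embryos (right). Filled points are limma estimates with 95% intervals, open points are differences of means of genes under the filter on low values, and dotted lines mark 1.5-fold; the intervals of *Cpeb3* in MII oocytes and of *Cpeb1* and *Cpeb2* in 2cell embryos lie above 0, but *Cpeb3* in MII oocytes and *Cpeb1* in 2cell embryos passed the filter through their CPEB3-/- libraries.

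Whether the stage change differed between the genotypes was tested as the interaction of stage and genotype, for which 8.6% of 15786 genes were called (3.36% higher and 5.24% lower). The split was 531 higher and 827 lower, and 802 and 416 when scaled to the sum of FPKM. Of the 4 members 0 were called, and *Cpeb2* was the member with an unadjusted p under 0.05, as had 23.4% of genes. The *Cpeb2* rise was larger in CPEB3-/- by 0.90 on the log2 scale (standard error 0.31, adjusted p = 0.0787, limma), and 1.09 without CPEB3+/- 2cell library C (adjusted p = 0.0137), where it was called. This too rests on a gene that passed the filter only through its 2cell libraries. The interaction was 0.16 for *Cpeb1* (95% interval -0.24 to 0.56, adjusted p = 0.668), -0.30 for *Cpeb3* (-0.68 to 0.07, adjusted p = 0.332) and -0.27 for *Cpeb4* (-0.63 to 0.10, adjusted p = 0.383).

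The genes around the targeted locus were compared in the same way. *Btaf1*, which encodes a regulator of the TATA-binding protein, lies 8539 bases from *Cpeb3*. Its mean was 0.681 ± 0.0489 FPKM (n = 5, SD) in MII oocytes labelled CPEB3+/- and 0.551 ± 0.0545 FPKM (n = 5) in those labelled CPEB3-/-. In 2cell embryos it was 0.834 ± 0.0809 FPKM (n = 5) against 0.548 ± 0.0676 FPKM (n = 4). In both stages each CPEB3-/- library was lower than each CPEB3+/- library, which held in either direction for 16.3% of tested genes in MII oocytes and 20% in 2cell embryos. The log2 difference was -0.34 (standard error 0.12, adjusted p = 0.0568, limma) in MII oocytes and -0.54 (0.15, adjusted p = 0.0301) in 2cell embryos, under 1.5-fold in both. The genes *Ide* (60142 bases away), *Rpl10-ps6* (86554 bases) and *Fgfbp3* (101676 bases) had exact permutation p-values between 0.0635 and 0.817 over both stages, and none was called.

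The partners of the CPEB proteins were counted from 4 lists, to be read against the 12.9% of all genes called in MII oocytes and 18.1% in 2cell embryos. Genes called only under another setting are named after their values were seen. Of 13 listed genes of the complex that polyadenylates CPE-bound mRNA 12 were matched and tested, of which 2 fell and 0 rose in CPEB3-/- MII oocytes, and 1 rose and 1 fell in 2cell embryos. *Pabpc1*, the somatic poly(A)-binding protein, went from 0.265 ± 0.0493 to 0.116 ± 0.0290 FPKM (n = 5 each, SD) in MII oocytes (log2 difference -0.81, adjusted p = 0.00260, limma). Its 5 CPEB3+/- libraries, where it was high (at least 0.206 FPKM), were enough to pass the filter. The CPEB3-/- libraries alone were not (minimum 0.0961, median 0.101 FPKM). *Pabpc1l*, its embryonic counterpart, went from 0.116 ± 0.0231 (n = 5) to 0.293 ± 0.103 FPKM (n = 4) in 2cell embryos (0.83, adjusted p = 0.0212). *Wdr33*, the subunit of the specificity factor that reads the poly(A) signal, fell in both stages (-0.59 and -0.80, adjusted p = 0.0350 and 0.0105), and is named here after its values were seen. It was not called in either stage when scaled to the sum of FPKM (-0.43 and -0.54). In MII oocytes it was not called with the values as deposited (-0.50), with no filter (adjusted p = 0.0649) or with all 19 libraries in 1 fit (-0.53), and not when any 1 of 6 libraries was left out (CPEB3+/- A, C or D, CPEB3-/- A, B or C; -0.60 to -0.47). *Pabpc1l* was not called after removal of the GC trend (0.59) or without CPEB3-/- library A or B (0.78 and 0.67). With a pseudocount of 1 all 3 genes fell under 1.5-fold. When scaled to the sum of FPKM, *Pabpc1l* was called higher in MII oocytes too (0.66) and *Fip1l1* in 2cell embryos (0.65, and 0.67 with the GC trend removed). The median log2 difference of the list was -0.01 in MII oocytes and 0.07 in 2cell embryos, against 0.02 for all genes tested in each stage. It was 0.10 and 0.04 with the GC trend removed (all genes 0.02 and 0.03). Scaled to the sum of FPKM it was 0.14 and 0.30 (all genes 0.15 and 0.26).

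Of 14 partners that repress or store CPE-bound mRNA 13 were tested in each stage, of which 1 rose in MII oocytes, and 2 rose and 1 fell in 2cell embryos. *Ybx2*, an oocyte RNA-binding protein that masks stored mRNAs, rose in both stages. It was 0.336 ± 0.0921 and 0.864 ± 0.279 FPKM (n = 5 each, SD) in MII oocytes (log2 difference 1.05, adjusted p = 0.00554) and 1.33 ± 0.133 (n = 5) and 3.54 ± 0.884 FPKM (n = 4) in 2cell embryos (1.3, adjusted p = 0.00186). *Eif4e*, the cap-binding protein, fell in 2cell embryos from 13.5 ± 2.04 (n = 5) to 6.79 ± 0.936 FPKM (n = 4; -0.996, adjusted p = 0.00241). *Eif4e1b*, its oocyte form known to bind CPEB complexes, rose there (0.90, adjusted p = 0.0126), and is named here after its values were seen. With a pseudocount of 1 *Ybx2* was under 1.5-fold in MII oocytes (0.44). When scaled to the sum of FPKM *Lsm14b* was called higher in both stages (0.88 and 0.86) and *Zar1* in 2cell embryos (0.81, and 0.67 with the GC trend removed). The median of the list was 0.02 in MII oocytes and -0.08 in 2cell embryos, the latter turning to 0.21 with that scaling and to 0.15 with the GC trend removed.

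Of the 9 deadenylation partners, *Cnot7*, a catalytic subunit of the CCR4-NOT deadenylase, was the only gene called in either stage with the main scaling. It fell from 20.8 ± 5.07 to 10.2 ± 3.35 FPKM (n = 5 each, SD) in MII oocytes (log2 difference -1.14, adjusted p = 0.0193) and from 17.3 ± 4.53 (n = 5) to 9.71 ± 1.63 FPKM (n = 4) in 2cell embryos (-0.82, adjusted p = 0.0252). The study followed up *Cnot7* from these libraries, so its place in the list is not independent evidence. The 2cell call was lost once the GC trend was removed (-0.39) or with the sum of FPKM (-0.51), and without CPEB3+/- library B, CPEB3-/- library A or CPEB3-/- library D (-0.77, -0.83 and -0.70, adjusted p from 0.0534 to 0.0685). When scaled to the sum of FPKM, *Tob1* (1.13) and *Tob2* (0.82) were called higher in MII oocytes beside the lower *Cnot7*, and *Tob2* (0.79) and *Zfp36l2* (0.82) in 2cell embryos, where none was then lower. *Tob1* was also called in MII oocytes with the values as deposited (1.06). The median of the list was -0.13 in MII oocytes and -0.32 in 2cell embryos, but 0.011 and -0.014 when scaled to the sum of FPKM (all genes 0.15 and 0.26) and -0.0047 and 0.065 with the GC trend removed (all genes 0.02 and 0.03), so that the list had no stable direction. Of the 18 genes that phosphorylate or otherwise regulate CPEB proteins, 10 were tested in MII oocytes and 11 in 2cell embryos, and 1 rose in each stage. *Mapk3*, a kinase of the MAPK cascade, rose in MII oocytes from 2.37 ± 0.632 to 4.30 ± 0.586 FPKM (n = 5 each, SD; 0.77, adjusted p = 0.00572). *Plk1*, a kinase that marks CPEB1 for degradation, rose in 2cell embryos from 2.57 ± 0.510 (n = 5) to 4.64 ± 0.595 FPKM (n = 4; 0.82, adjusted p = 0.00996). Both calls were lost once the GC trend was removed (0.54 in each). When scaled to the sum of FPKM, *Mapk3* was called higher in 2cell embryos too (1.28). The median of this list was 0.17 in MII oocytes and 0.28 in 2cell embryos, against 0.02 for all genes tested in each stage. It was 0.051 and 0.20 with the GC trend removed (all genes 0.02 and 0.03). Scaled to the sum of FPKM it was 0.29 and 0.55 (all genes 0.15 and 0.26). In the interaction of stage and genotype 0 genes of the other lists were called, and of the regulators *Cdk1*, the kinase of meiotic entry, was lower (-0.83, adjusted p = 0.0187). It is named here after its values were seen.

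Between the stages the same lists changed in both directions, against 65.4% and 64.7% of all genes called. In CPEB3+/- libraries 2 of 12 genes of the polyadenylation complex were called higher and 5 lower at the 2cell stage, 4 of 14 repressor partners higher and 7 lower, 3 of 9 deadenylation partners higher and 2 lower, and 3 of 12 regulators higher and 4 lower. In CPEB3-/- libraries the counts were 2 and 6, 4 and 6, 3 and 2, and 3 and 4. The median of the polyadenylation complex was -0.48 and -0.54, that of the repressor partners was -0.54 and -0.27, that of the deadenylation partners was 0.40 and 0.39, and that of the regulators was 0.03 and 0.35, against 0.41 and 0.37 for all genes tested.

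The genes whose pattern was most like that of a member were ranked by Pearson's r over the 19 libraries among the 5279 genes with a mean of at least 1 FPKM. The 19 libraries share 2 stages, so that a gene with a strong stage change reaches a high r, and r is given as a description. The closest to *Cpeb1* were *Chaf1a* (r = 0.988), *Eif2ak1* (0.986) and *Timeless* (0.985). The closest to *Cpeb2* were *Gm16243* (0.982), *Rpl37a* (0.982) and *Gm29361* (0.980). The closest to *Cpeb3* were *Rell1* (0.958), *Ubxn2a* (0.948) and *Gm49521* (0.938), each of which, like *Cpeb3*, had its highest group mean in CPEB3-/- MII oocytes. The closest to *Cpeb4* were *Hcrt* (0.977), *AA414768* (0.976) and *Gm5788* (0.974), each with its highest group mean in CPEB3+/- 2cell embryos.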

How the data were processed

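RNA of MII oocytes and 2cell embryos was sequenced in 19 libraries (5 CPEB3+/- MII, 5 CPEB3-/- MII, 5 CPEB3+/- 2cell and 4 CPEB3-/- 2cell), grouped by their labels. The methods give quadruplicates without naming libraries, so all 19 were used. The methods name a HiSeq X and the labels a NovaSeq sequencer. The authors made the libraries with a SMART-seq kit, which amplifies cDNA without molecular identifiers, trimmed reads with Trim Galore 0.4.1, mapped them to GRCm38 with HISAT2 2.0.5 and computed FPKM in SeqMonk. The deposited values are FPKM although their table is called raw counts: 0.00203% of them are whole numbers above 0, and for genes with 1 transcript 43.9% of low values fell on whole fragments (tolerance 0.05), against 10% by chance. Depth was estimated from these steps, and fragments per member from its longest coding transcript. Counting intervals (95%, exact) cover counting error only. There were 0 unused columns.

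Scaling between libraries used trimmed mean log ratios (30% of ratios and 5% of levels trimmed on each side). A gene was fitted if it reached 0.1 FPKM in 5 MII libraries, or in 4 for 2cell embryos and for all 19 libraries. The log2(FPKM + 0.1) values went into limma 3.58.1 under R 4.3.3, with a variance trend, by group within a stage for the genotype and over all 19 libraries for the stage and the interaction. Benjamini-Hochberg adjustment covered all genes tested. For members under the filter a two-sided exact permutation test was used (252 arrangements in MII, 126 in 2cell). Genes of the table were matched to GENCODE vM21 by coordinates (25859 of 25891), and 3′UTR sequences are of its transcripts. Python 3.11.15, scipy 1.17.1 and pandas 2.3.3 were used.

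The members, gene lists and tests were chosen with earlier results of these data known. The genes named are the 4 members, per list the 2 called genes with the largest change, the 3 genes most like each member and the 2 nearest on each side of *Cpeb3*, with exceptions stated. Alternatives were the values as deposited, scaling to the sum of FPKM, pseudocounts of 1 and 0.01, no filter, a filter of 1 FPKM, removal of a loess trend with GC content (span 0.5), the replicate letter as a block, 1 fit of all libraries, no fold threshold and each library left out. Other values, such as a test on counts, were not used here, since the table holds none. Some withheld items are not reported here.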

Additional observations from a re-analysis of the deposited data

Results flagged for a closer look

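Of 16 groups of 4 or 5 libraries (4 members in 4 groups), 4 held a library whose gap to the nearest of the others was large against the range of the group (Dixon's test, critical value 0.829 for 4 and 0.71 for 5 libraries). Chance gives about 1 in 20. All 4 were in 2cell embryos. *Cpeb1* in CPEB3+/- library C was at 0.0956 FPKM, the highest of its group but below all CPEB3-/- libraries. *Cpeb3* in CPEB3+/- library D was at 0.0566 FPKM, the highest of its group, and it is this library that overlaps the other genotype. *Cpeb3* in CPEB3-/- library B was at 0.0362 FPKM and *Cpeb4* in the same library at 0.614 FPKM, each the lowest of its group. *Cpeb1* and *Cpeb3* rest on fewer than 10 fragments in each 2cell library. No interaction of stage and genotype passed the threshold for a member.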

How the results depend on the processing

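Leaving aside single libraries, 142 of 164 recomputed values of the members kept their sign and their side of the threshold. The 164 include 3 settings for each of the 6 neighbouring pairs, for which no call is defined. Those pairs were taken from the order of these same libraries, so their sign was largely given beforehand. With a pseudocount of 1, stage changes fell under 1.5-fold for *Cpeb1* (-0.53 in CPEB3+/-, -0.56 in CPEB3-/-), *Cpeb2* in CPEB3+/- (0.35), *Cpeb3* in CPEB3-/- (-0.13) and *Cpeb4* (0.50 and 0.38), and the *Cpeb1* interaction turned to -0.029. Scaled to the sum of FPKM, *Cpeb4* lost its stage calls (0.46 and 0.39), its 2cell genotype difference turned to 0.10, and *Cpeb3* in MII (0.62) and between stages in CPEB3+/- (-0.65), *Cpeb2* in 2cell (1.13) and the *Cpeb2* interaction (1.07) were called. With a pseudocount of 0.01, *Cpeb3* was called in MII (0.95) and between stages in CPEB3+/- (-1.04). In 2cell (0.72) it then passed only by an unadjusted exact permutation p, since it was under the filter. With no fold threshold, *Cpeb3* was called in MII (0.53) and 2cell (0.25, unadjusted). With all 19 libraries in 1 fit *Cpeb2* was called in 2cell (0.88). Removing the GC trend turned *Cpeb4* in 2cell to 0.22, and with the replicate block as well to 0.11.

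The same-letter correlation of deviations from the group mean lay between -0.34 and 0.17, and in both stages letter D was its own best match. Whether the replicate letters mark a shared batch cannot be told from so few libraries. Over all genes, the replicate block left 830 calls in MII and 381 in 2cell libraries, against 1356 and 2537. With the GC trend removed too, it left 940 and 0 (limma), and 3381 genes had an unadjusted p under 0.05 in the latter. *Cpeb3* in MII had an adjusted p of 0.0587 with the block. Of the partner genes, *Cnot7* (adjusted p = 0.0610 in MII, 0.0799 in 2cell) and *Wdr33* (0.107 and 0.0752) in both stages and *Pabpc1l*, *Eif4e1b* and *Plk1* in 2cell were not called with the block.

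With 1 library left out at a time, the log2 genotype difference in MII was -0.059 to 0.015 for *Cpeb2* and -5.6e-05 to 0.10 for *Cpeb4*. For *Cpeb2* it was 0.73 to 1.08 in 2cell, and the interaction was 0.74 to 1.09. That interaction was also called without CPEB3-/- 2cell library C (1.06). All other such fits of the members kept sign and call. Members are under a filter of 1 FPKM and gave no value there. *Cpeb2* in MII and *Cpeb3* in 2cell were under the main filter, so no block or GC value exists for them. Over all genes, a pseudocount of 1 left 481 calls in MII and 1161 in 2cell libraries, 888 in the interaction and 5168 and 5320 between stages. A filter of 1 FPKM left 769, 1539, 868, 5195 and 5119. No fold threshold gave 2258 in MII, and a pseudocount of 0.01 gave 868 in the interaction.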
